A study of Mus musculus with 14 samples.

Results

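Intervals at the ends of protein-coding genes were examined in chromatin accessibility profiles of mouse liver. Accessibility was measured by ATAC-seq, in which a transposase cuts and tags open DNA, and the deposited tables give read counts in intervals of 501 bp. An interval was taken as a gene-end interval if its midpoint lay within 1000 bp of the start or end bound of a RefSeq protein-coding gene on mm10. There were 19659 such intervals among 88203 in the chow table (22.3%) and 21640 among 105801 in the high-fat table (20.5%). The remaining 68544 and 84161 intervals, in gene bodies and between genes, are called other intervals.

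Liver nuclei came from 14 female mice that all carried floxed alleles of Matr3, the gene of the nuclear matrix protein matrin-3. Floxed animals (flox) were compared with littermates that also carried Albumin-Cre (LKO). The Albumin promoter drives Cre in hepatocytes, and other cell types of these livers may still have the gene. Animals were given chow (3 LKO, 3 flox) or a diet with 60 kcal% fat (4 LKO, 4 flox) from 7 weeks of age, for 16 weeks. The labels describe a fast of 12 h for the animals on the high-fat diet and say nothing of fasting for those on chow. Reads within intervals, in megareads (M), came to 15.5 to 35 M per chow library and 7.59 to 10.4 M per high-fat library. Chow LKO 2 and flox 2, with 15.5 and 17.1 M, were the libraries of fewest reads in that table. Values are in CPM, read counts scaled to a common library total with TMM factors, fold changes are log2 of LKO over flox with the standard error (SE) of the fit, and adjusted p-values are from edgeR's quasi-likelihood test with Benjamini-Hochberg adjustment over all intervals of a table. An interval that passed an adjusted p of 0.05 is called.

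The bounds of a gene hold different kinds of DNA. At the start of an active gene the promoter is kept free of nucleosomes, and promoters rich in CpG dinucleotides are open in most tissues whether or not the gene varies in expression. The 3' end, where transcription stops, has no such standing gap, and accessibility there can mark an enhancer or a strongly transcribed gene. The genotype change at either bound of a gene can therefore be set beside that at the other.

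The RefSeq promoter table gave a strand for 17492 of 21900 coding genes, which separated starts from 3' ends. Gene starts were the largest class, with 13879 chow and 14759 high-fat intervals. There were 1869 and 2595 intervals at 3' ends, and 3911 and 4286 at bounds of genes whose strand was not given, called gene ends without strand. An interval near a start and a 3' end was counted as a start. Of the genes with strand, 55.2% had a start interval on chow and 56.7% in high-fat livers, against 12.5% and 15.5% with a 3' end interval. The threshold was no edge in the data: chow intervals between 900 and 1000 bp from a bound had a median of 8.68 CPM (n = 916) and those between 1000 and 1100 bp, just outside, 8.58 CPM (n = 844). The high-fat medians were 7.18 CPM (n = 1133) and 7.31 CPM (n = 1063).

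The promoter windows of 10 genes are shown because the results turn on how little or how much their starts moved. Each is the RefSeq GRCm38.p6 sequence (the assembly mm10 names) from 250 bases before to 50 bases after the start, 5′ to 3′ on the gene's strand. Capitals mark matches to fixed letters, searched on both strands. The TATA box was searched as TATAAA. The box bound by the factor NF-Y was searched as CCAAT, and the GC box bound by Sp1 as GGGCGG. For ETS factors the letters were CCGGAAG, and for NRF1, which works as a dimer, GCGCATGC. The letters for the zinc finger protein YY1 were AAGATGG, and those of the E-box CACGTG. The short form of the cyclic AMP response element was searched as TGACG, and the AP-1 element as TGACTCA. The core of the metal response element was searched as TGCACNC and, with a different middle base, as TGCGCNC. Where 2 matches overlap, the capitals run together.

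The first 4 are windows of the genes with the largest rises (Egfr, Nlrp12) and falls (Cyp2a22, Angptl8) at 3' ends on the high-fat diet, among genes with a window in the table. They lie at chr11:16751953-16752252 (plus strand), chr7:3249691-3249990 (minus), chr7:26939337-26939636 (minus) and chr9:21835260-21835559 (plus).
Egfr: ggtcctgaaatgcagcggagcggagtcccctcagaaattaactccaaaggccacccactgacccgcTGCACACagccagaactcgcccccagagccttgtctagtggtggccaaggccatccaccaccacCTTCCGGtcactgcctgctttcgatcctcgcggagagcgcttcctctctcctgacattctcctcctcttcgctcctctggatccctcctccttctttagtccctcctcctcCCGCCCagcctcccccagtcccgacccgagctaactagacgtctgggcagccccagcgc
Nlrp12: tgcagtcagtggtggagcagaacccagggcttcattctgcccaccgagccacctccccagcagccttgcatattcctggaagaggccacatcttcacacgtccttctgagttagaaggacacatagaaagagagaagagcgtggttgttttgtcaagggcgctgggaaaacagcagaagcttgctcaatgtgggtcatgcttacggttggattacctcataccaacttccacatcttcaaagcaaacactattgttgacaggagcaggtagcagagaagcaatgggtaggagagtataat
Cyp2a22: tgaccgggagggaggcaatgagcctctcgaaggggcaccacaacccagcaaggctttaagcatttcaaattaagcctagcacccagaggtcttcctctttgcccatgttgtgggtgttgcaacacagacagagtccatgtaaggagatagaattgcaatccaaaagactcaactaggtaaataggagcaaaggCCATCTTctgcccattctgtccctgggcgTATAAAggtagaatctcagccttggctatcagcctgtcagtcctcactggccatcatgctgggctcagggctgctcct
Angptl8: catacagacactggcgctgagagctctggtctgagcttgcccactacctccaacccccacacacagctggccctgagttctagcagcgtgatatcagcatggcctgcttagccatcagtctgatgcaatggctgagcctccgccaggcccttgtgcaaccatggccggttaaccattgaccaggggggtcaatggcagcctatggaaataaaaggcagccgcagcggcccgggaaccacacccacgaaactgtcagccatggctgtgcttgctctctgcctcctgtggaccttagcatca

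Rpl4 (chr9:64173137-64173436, plus) and Rpl5 (chr5:107900278-107900577, plus) encode ribosomal proteins and stand for starts whose groups overlapped.
Rpl4: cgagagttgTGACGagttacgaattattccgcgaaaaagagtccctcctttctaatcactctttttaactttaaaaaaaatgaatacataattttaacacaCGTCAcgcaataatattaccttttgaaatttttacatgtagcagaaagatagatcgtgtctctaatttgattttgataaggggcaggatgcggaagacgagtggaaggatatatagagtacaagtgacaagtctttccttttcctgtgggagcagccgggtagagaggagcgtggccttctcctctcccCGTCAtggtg
Rpl5: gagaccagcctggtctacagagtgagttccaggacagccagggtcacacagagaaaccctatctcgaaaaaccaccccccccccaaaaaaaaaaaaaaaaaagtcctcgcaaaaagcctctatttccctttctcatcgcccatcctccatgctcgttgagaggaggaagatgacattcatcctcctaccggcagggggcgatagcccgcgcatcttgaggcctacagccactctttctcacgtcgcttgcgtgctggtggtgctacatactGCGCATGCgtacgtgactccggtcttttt

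The last 4 windows belong to genes whose start interval itself was called on the high-fat diet, chosen after their values were seen: Mt2 (chr8:94172368-94172667, plus), Gadd45g (chr13:51846425-51846724, plus), Ciart (chr3:95882179-95882478, minus) and Cyp2a4 (chr7:26306942-26307241, plus).
Mt2: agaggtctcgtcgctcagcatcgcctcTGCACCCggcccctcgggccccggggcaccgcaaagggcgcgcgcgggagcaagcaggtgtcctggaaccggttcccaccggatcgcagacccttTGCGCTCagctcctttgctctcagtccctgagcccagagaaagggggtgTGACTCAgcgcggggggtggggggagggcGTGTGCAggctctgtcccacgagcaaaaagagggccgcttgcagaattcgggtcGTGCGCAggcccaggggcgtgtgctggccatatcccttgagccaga
Gadd45g: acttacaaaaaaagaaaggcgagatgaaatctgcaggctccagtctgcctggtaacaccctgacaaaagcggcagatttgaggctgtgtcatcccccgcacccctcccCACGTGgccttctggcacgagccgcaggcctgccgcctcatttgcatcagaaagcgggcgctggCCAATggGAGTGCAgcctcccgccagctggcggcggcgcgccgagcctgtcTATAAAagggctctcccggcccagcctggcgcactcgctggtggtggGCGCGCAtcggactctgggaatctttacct
Ciart: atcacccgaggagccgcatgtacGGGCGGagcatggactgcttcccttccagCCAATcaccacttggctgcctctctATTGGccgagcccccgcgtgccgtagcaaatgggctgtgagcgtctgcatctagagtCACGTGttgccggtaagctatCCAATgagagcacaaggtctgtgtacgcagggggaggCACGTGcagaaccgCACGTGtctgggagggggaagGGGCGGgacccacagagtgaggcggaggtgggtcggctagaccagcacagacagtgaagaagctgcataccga
Cyp2a4: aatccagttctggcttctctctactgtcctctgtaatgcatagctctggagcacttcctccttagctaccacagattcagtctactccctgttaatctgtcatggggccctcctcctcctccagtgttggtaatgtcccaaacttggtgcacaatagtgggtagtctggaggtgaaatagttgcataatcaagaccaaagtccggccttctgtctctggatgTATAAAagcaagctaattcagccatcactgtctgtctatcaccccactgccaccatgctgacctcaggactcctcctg

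The targeted gene gave no check of the genotype labels. Matr3 carried 2 gene-end intervals in each table. The stronger one held 30.4, 24.7 and 28.2 CPM in chow LKO and 26.6, 24.6 and 30.5 CPM in chow flox (log2 fold change 0.03, SE 0.14, adjusted p = 0.97). On the high-fat diet it held 32.1, 28.1, 30.7 and 28.5 CPM in LKO and 31.8, 37.2, 23.6 and 27.7 CPM in flox (−0.01, SE 0.12, adjusted p = 0.987). The groups overlapped in both tables, and the labels do not say which part of the gene is floxed.

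Gene starts were more accessible than the rest of the intervals, and 3' ends were not. On chow the median start interval held 15.6, 14.2 and 16.6 CPM in LKO 1 to 3 and 14.6, 13.8 and 15.8 CPM in flox 1 to 3. The median other interval held 7.01, 7.21 and 6.87 CPM in LKO and 7.26, 7.45 and 6.92 CPM in flox. The start medians were thus higher in all 6 libraries, with no gap between the genotypes. Within a library the median log2 level at starts exceeded that of other intervals by 1.07 (range 0.88 to 1.27 over libraries, exact sign-flip permutation p = 0.0312, the smallest 6 libraries allow).

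In the high-fat libraries starts held 13.5, 12.8, 13.3 and 12.8 CPM in LKO and 13.4, 13.4, 13.1 and 13 CPM in flox, against 6.12 to 6.41 CPM at other intervals over all 8 libraries. The log2 difference was 1.04 (0.97 to 1.12, exact sign-flip permutation p = 0.00781, the smallest 8 libraries allow). At 3' ends it was 0.04 on chow (−0.02 to 0.1, exact sign-flip permutation p = 0.125) and 0.01 on the high-fat diet (−0.06 to 0.07, p = 0.453, the same permutation test), so 3' ends were not distinguishable in level from other intervals. All gene ends together exceeded other intervals by 0.95 on chow and 0.86 in high-fat livers, on the log2 scale. That difference did not separate the genotypes: on chow it was 0.99 in LKO and 0.9 in flox (exact permutation p = 0.5), and on the high-fat diet 0.84 and 0.87 (exact permutation p = 0.486).

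**Figure D1:**
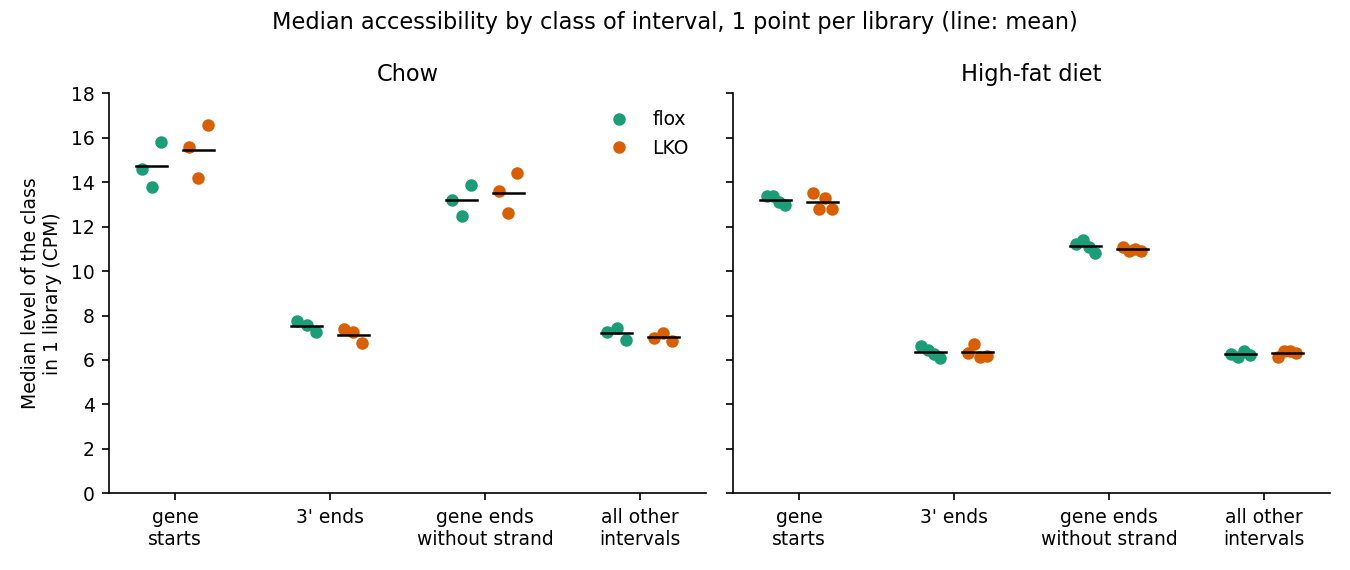
Median accessibility (CPM) of gene starts, 3' ends, gene ends without strand and all other intervals, 1 point per library (n = 3 per genotype on chow, 4 on the high-fat diet), with the group mean as a line. Gene starts sit at 13.8 to 16.6 CPM on chow, above all other intervals at 6.87 to 7.45 CPM, and 3' ends overlap the other intervals.

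Gene-end intervals took 35.9%, 35.3% and 37.3% of within-interval reads in chow LKO and 34.2%, 34.5% and 36.3% in chow flox. The mean share was 36.2% ± 0.997 in LKO and 35% ± 1.13 in flox (SD, n = 3), and the difference of 1.17 percentage points was within what relabelling gives (exact two-sided permutation p = 0.3, where 3 against 3 cannot go below 0.1). High-fat shares were 33.7%, 32.2%, 33.2% and 32.8% in LKO and 33%, 32.7%, 32.7% and 33% in flox (exact permutation p = 0.771). On chow the share was higher in LKO than in the same-numbered flox column in 3 of 3 pairs (exact sign-flip permutation p = 0.25, the smallest 3 pairs allow). The level difference and the start median, other readings of the same shift, were also higher in LKO in all 3 pairs. The labels tie chow columns of 1 number to no pair of animals, so these counts add no support. A shift toward gene ends on chow could not be tested at this size.

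Accessibility at starts was concentrated next to the start itself. On chow 7185 of the 13879 start intervals (51.8%) had their midpoint within 250 bp of the start, with a median of 19.8 CPM. The bin 100 to 200 bp upstream had the highest median, 22.6 CPM on chow and 19.6 CPM in high-fat livers, and the bin 900 to 1000 bp upstream had 8.3 and 6.84 CPM. More start intervals lay downstream than upstream of the start (60.1% on chow, 59.9% on the high-fat diet). At 3' ends there was no such peak: 21.6% of chow and 21.1% of high-fat intervals lay within 250 bp of the bound, at medians of 7.02 and 6.04 CPM.

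**Figure D2:**
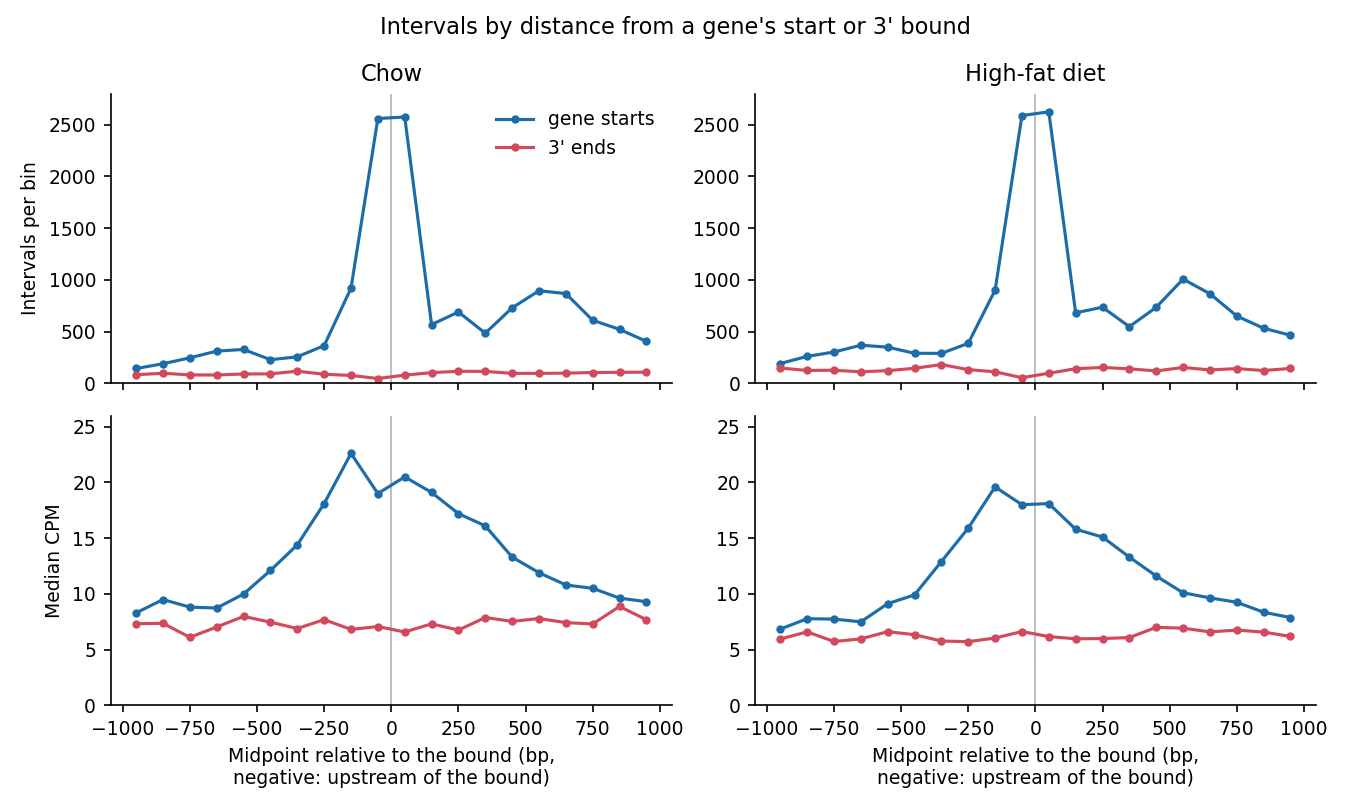
Number of intervals (upper panels) and their median CPM (lower panels) in bins of 100 bp by the distance of the midpoint from the bound, negative values lying upstream, for gene starts and 3' ends. Starts peak beside the bound, at 22.6 CPM on chow and 19.6 CPM in high-fat livers, and the curves for 3' ends are flat.

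CpG content of the promoter window went with whether the start was open. Of 21263 windows, 53.4% overlapped an interval on chow and 54.9% in high-fat livers. Windows with an interval held a median of 22 CpG on chow and 21 in the high-fat table, and windows without one held 4. Of windows with 0 to 4 CpG, 11.4% had an interval on chow and 12.8% in high-fat livers, against 87.3% and 88% of windows with 30 or more.

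The letters in the windows differed in the same comparison. On the high-fat diet a GC box of Sp1, a general activator of CpG-rich promoters, stood in 66% of windows with an interval and 22.1% of those without, beside 46.2% of all windows. The ETS letters stood in 18.1% and 3.62% (11.6% of all), and those of NRF1, a regulator of nuclear genes for mitochondria, in 5.33% and 1.31% (3.52% of all). A TATA box, which directs the start in many strongly regulated genes, went the other way, at 6.51% and 20% (12.6% of all). The CCAAT letters were at 37.9% and 38.6%, near the 38.2% of all windows. These shares describe letters in windows that also differ in CpG content, and binding was not measured.

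Among the printed windows, Egfr held 1 ETS match, 1 GC box and 1 metal response core, and Rpl4 held 3 matches to the short cyclic AMP response element. Rpl5 held 1 NRF1 match. Cyp2a22 and Cyp2a4, members of a xenobiotic-metabolising P450 family, each held 1 TATA box. Ciart, a repressor within the circadian clock, held 3 E-boxes, the letters bound by CLOCK and BMAL1, and E-boxes stood in 7.84% of all windows. Mt2, which encodes a metal-binding metallothionein, held 4 metal response cores, letters found at least once in 29.3% of all windows.

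Gene starts also varied less from animal to animal. The SD between animals of a genotype, on log2 CPM, had a median of 0.177 at starts, 0.279 at 3' ends and 0.248 at other intervals on chow, and of 0.205, 0.313 and 0.293 on the high-fat diet. Counting noise falls with level, so the classes were also set side by side within 10 deciles of mean level. Starts had the lower median SD in 10 of 10 deciles on chow and in 9 of 10 for high-fat libraries. Averaged over the deciles that starts occupy, the SD was 0.181 at starts and 0.212 at other intervals on chow, and 0.216 and 0.239 on the high-fat diet.

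The 3' ends stood on the other side, with a higher SD than other intervals in 7 of 10 deciles on chow and 9 of 10 on the high-fat diet. At matched level their SD was 0.274 against 0.247 on chow, and 0.312 against 0.295 on the high-fat diet. Intervals of 1 library are not independent, so no p-value is given for these differences. Within starts, the SD fell with CpG content, from 0.261 in windows with 0 to 4 CpG to 0.152 in those with 30 or more on chow, and from 0.26 to 0.162 on the high-fat diet. The median level rose over the same bins, from 10.8 to 25.2 CPM on chow and from 8.82 to 23.1 CPM on the high-fat diet.

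The size of the genotype change followed the same order. The median absolute log2 fold change was 0.126 at starts, 0.197 at 3' ends and 0.174 at other intervals on chow, and 0.112, 0.195 and 0.179 on the high-fat diet. At matched level starts changed less than other intervals in 10 of 10 deciles on both diets. The 3' ends changed more in 10 of 10 deciles on chow and 8 of 10 in the high-fat table.

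**Figure D3:**
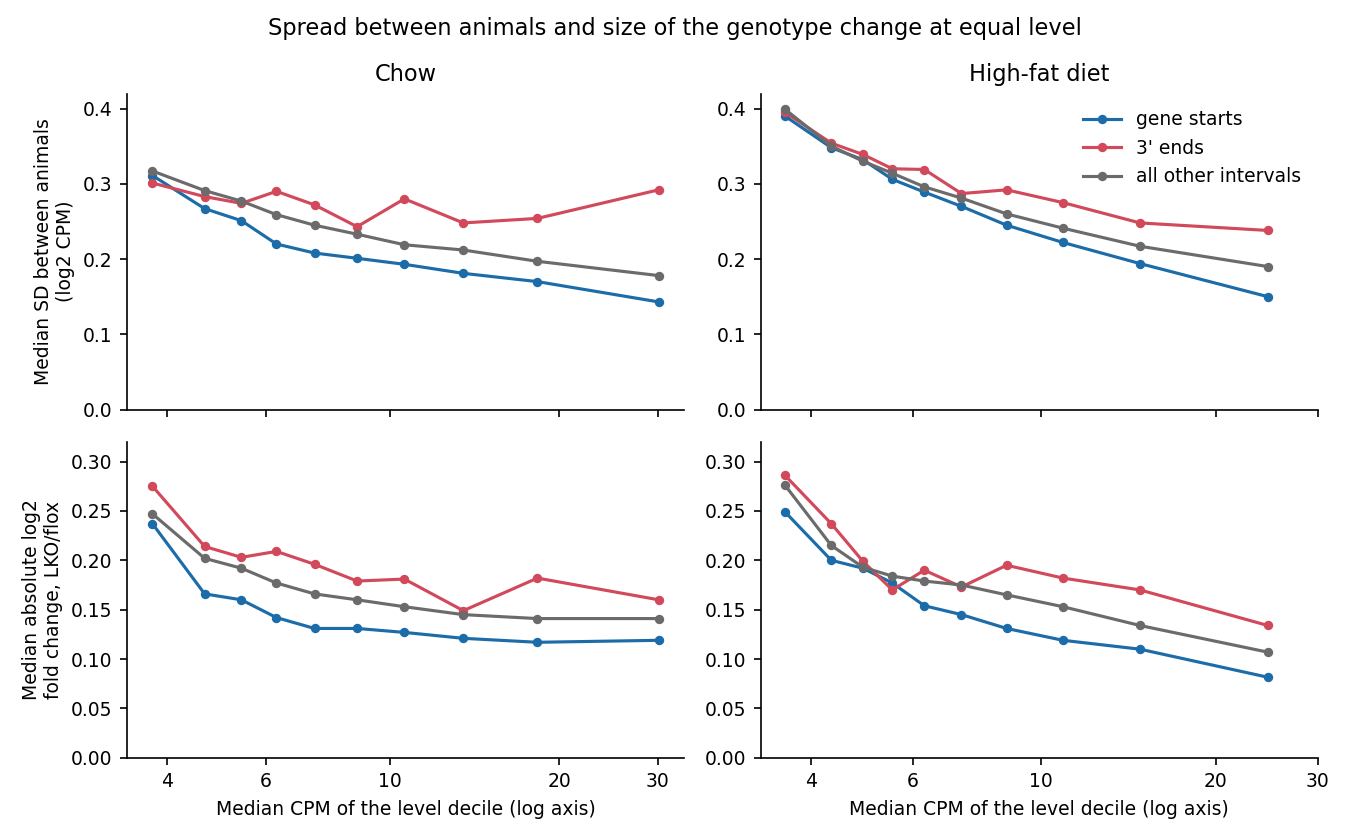
Median SD between animals of a genotype (log2 CPM, upper panels) and median absolute log2 fold change of LKO over flox (lower panels) in 10 deciles of level, for gene starts, 3' ends and all other intervals, against the median CPM of the decile on a log axis. Starts lie below other intervals in 10 of 10 deciles in both lower panels, and 3' ends lie above them in 10 of 10 on chow and 8 of 10 on the high-fat diet.

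On chow, Phlda1, a pleckstrin-homology protein induced by growth factors, was the gene whose end intervals were called, at 2 neighbouring intervals that fell in LKO. Its strand was not given. Its interval at chr10:111508649-111509149 held 7.92, 5.39 and 8.87 CPM in LKO against 29.3, 20.5 and 34.2 CPM in flox (log2 fold change −1.91, SE 0.23, adjusted p = 0.0383). The interval at chr10:111509385-111509885 held 12.6, 6.9 and 16.4 CPM against 61.8, 38.2 and 55.8 CPM (−2.1, SE 0.27, adjusted p = 0.048). In both, each LKO library lay under each flox library. Groups were apart at all 20 intervals called on chow, so this adds nothing to the calls.

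These 2 calls are 0.0102% of gene-end intervals, where 0.0227% of all chow intervals and 0.0263% of other intervals were called. Over all chow intervals 0.0215% fell and 0.00113% rose. At an unadjusted p of 0.05, 852 gene-end intervals (4.33%) passed in edgeR, against 6.77% of all intervals. The groups did not overlap at 1895 gene-end intervals (9.64%), against 11.7% of all. By each measure the pooled gene ends were under the background of the table, but the classes differed. In edgeR 9.79% of 3' ends passed the unadjusted p of 0.05, above the background. Starts (3.49%) and gene ends without strand (4.7%) were under it. The groups did not overlap at 11.9% of 3' ends, near the background, against 9.13% of starts and 10.4% of gene ends without strand. The 2 calls were at gene ends without strand (0.0511%), with 0 at starts and 0 at 3' ends. Both Phlda1 calls were lost without LKO 1 (highest adjusted p over left-out libraries 0.207 and 0.255), without LKO 2, without flox 1 or without flox 3, and the count rose to 59 without flox 2. With the column number as a block the count was 20, of which 4 rose and 16 fell, and DESeq2 called 57.

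Below the threshold, the chow intervals of lowest p included 2 genes of plasma proteins, C3 and Serpina3k. C3, the central complement component, had a start interval at 6.69, 5.77 and 6.51 CPM in LKO and 15.4, 15 and 12.9 CPM in flox (−1.19, SE 0.16, adjusted p = 0.0613). Cyp7a1, whose enzyme sets the rate of bile acid synthesis, had 10, 7.59 and 8.16 CPM against 16.9, 18.9 and 22 CPM (−1.16, SE 0.17, adjusted p = 0.0805). Groups did not overlap at either gene, but both were picked for low p, and 11.7% of all chow intervals did not overlap. Serpina3k, a serine protease inhibitor secreted by hepatocytes, had 2.04, 2.7 and 5.16 CPM against 37.2, 9.62 and 41.3 CPM (−3.14, SE 0.5, adjusted p = 0.096), with flox 2 well under the other flox libraries. With the column number as a block the adjusted p was 0.0411 for C3, 0.0483 for Cyp7a1 and 0.0402 for this Serpina3k interval. DESeq2 called all 3, at adjusted p of 1.37e-06, 3.99e-06 and 0.00351. On the higher side, the start interval of Nudt19, a peroxisomal hydrolase of coenzyme A, held 11.9, 12.1 and 11.3 CPM against 6.38, 5.18 and 6.95 CPM (0.92, SE 0.17, adjusted p = 0.163, and 0.0023 in DESeq2).

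The chow fold changes leaned by class and by level. A positive fold change was found at 66.4% of starts and 37.9% of 3' ends, against 45.7% of other intervals. In both gene-end and other intervals the median fold change rose with level, from −0.147 in the lowest decile to 0.099 in the highest at gene ends, and from −0.178 to 0.086 at other intervals. Among high-fat fold changes, those of 51.1% of starts, 47.2% of 3' ends and 49.2% of other intervals were positive.

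On the high-fat diet, gene-end calls fell mostly at 3' ends and seldom at starts. Of 102 called gene-end intervals, 58 were at 3' ends, 25 at gene ends without strand and 19 at starts, and they belonged to 71 genes. The called share was 0.471% at gene ends, against 0.751% of all intervals and 0.823% of other intervals. By class it was 0.129% of starts, 0.583% of gene ends without strand and 2.24% of 3' ends, so starts lay under the background and 3' ends above it.

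In LKO 44 of the 102 rose and 58 fell (49 and 45 in DESeq2, 63 and 59 without flox 1), where 0.448% of all intervals rose and 0.303% fell. All 44 that rose were intervals the authors had named for the LKO calls, and all 58 that fell were named for the flox calls, so the intervals were placed on the same libraries that are compared here. The groups did not overlap at 81 of the 102, and at 934 gene-end intervals in all (4.32%, against 5.3% of all intervals). At an unadjusted p of 0.05, 7% of gene-end intervals passed (5.69% of starts, 14.4% of 3' ends), against 10.2% of all. The count was 48 without LKO 3, 44 without LKO 4, 63 without flox 2, 53 without flox 4 and 158 without flox 3. Of the 102 calls, 28 in 20 genes were kept whichever library was left out. The genes of largest change named below, in either direction, were taken only from calls whose groups do not overlap. At those intervals the gap between groups is fixed by the choice.

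Among the 3' ends that rose were genes of fasting and gluconeogenesis. Nr4a1, an orphan nuclear receptor induced by glucagon and stress, had 4 called intervals over its 3' end. The one of largest change, at chr15:101274232-101274732, held 16.2, 15.6, 10.7 and 12.9 CPM in LKO 1 to 4 and 4.05, 7.02, 2.64 and 4.26 CPM in flox 1 to 4 (log2 fold change 1.6, SE 0.22, adjusted p = 0.000227). Every LKO library lay above every flox library, as the choice of genes requires. Igfbp1, a secreted binding protein for insulin-like growth factors that insulin represses, had 3 called intervals. That at chr11:7201575-7202075 held 23.1, 28.5, 20.5 and 60.7 CPM against 13, 10.9, 9.42 and 15 CPM (1.45, SE 0.22, adjusted p = 0.000677), with LKO 4 far above the other LKO libraries. Of the 20 genes of the gluconeogenesis and fasting list, 3 had a called gene-end interval, and all 3 (Nr4a1, Igfbp1 and Got1) rose, at 9 of the list's 81 intervals. Over all genes with a gene-end interval 71 of 13054 had a called one, and 0.471% of all gene ends were called. Those pooled shares, also given for lists below, rest mostly on starts. Among this list's 17 genes with strand, 12 had a 3' end interval, against 15.5% of all genes with strand. Of all 3' ends 2.24% were called, so the pooled shares are an unlike background for the list. The list was chosen with earlier results of these data known. The median log2 fold change over the list's intervals was 0.06, against −0.0001 over all gene ends. Pck1, a gene of gluconeogenesis in this list, was not called, with −0.4 and −0.2 at 3' end intervals of high level (SE 0.14 at each, groups overlapping). Got1, the cytosolic aspartate aminotransferase, was the weakest, at 8.8, 6.29, 6.27 and 7.2 CPM against 4.61, 4.58, 1.51 and 1.38 CPM (1.22, SE 0.3, adjusted p = 0.0425), and its call was kept only without flox 1 and without flox 2 (highest adjusted p over left-out libraries 0.188).

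The largest rise was at the 3' end of Egfr, the receptor for epidermal growth factor. Its interval at chr11:16914006-16914506 held 3.76, 7.5, 3.66 and 2.4 CPM in LKO and 1.46, 1.56, 1.13 and 0.922 CPM in flox (1.76, SE 0.38, adjusted p = 0.0164), and the call was lost without LKO 2 (adjusted p = 0.158) and without flox 4 (0.0778). Of 18 genes of the EGF receptor list with a gene-end interval, Egfr was the 1 called, beside 71 of 13054 over all genes. Nlrp12, an inhibitory Nod-like receptor, held 5.26, 8.27, 9.4 and 10.2 CPM against 1.46, 2.34, 3.52 and 2.77 CPM at its 3' end (1.72, SE 0.27, adjusted p = 0.00079). The Nlrp12 call was kept under every left-out library.

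Other 3' ends that rose belong to amino acid and lipid genes. Agxt, which detoxifies glyoxylate in peroxisomes, held 10.3, 5.18, 6.92 and 18.7 CPM against 3.93, 3.51, 3.02 and 3.23 CPM (1.57, SE 0.28, adjusted p = 0.00426), and this call was lost without LKO 4 (0.0575) while a neighbouring interval kept its own. Insig2, which holds the sterol sensor SCAP in the endoplasmic reticulum, held 4.29, 9.15, 4.44 and 12.9 CPM against 2.7, 1.56, 3.39 and 3.46 CPM (1.48, SE 0.31, adjusted p = 0.0145), a call lost without LKO 2, LKO 4 (0.175) or flox 2. Its relative Insig1 moved the other way, at 4.18, 4.3, 4.57 and 3.41 CPM against 4.38, 8.87, 10.9 and 19.4 CPM (−1.39, SE 0.28, adjusted p = 0.0105), and its call was lost without LKO 4 (0.0628) or flox 4 (0.154). The Insig1 groups overlapped, through flox 1. Lpin1, a phosphatidate phosphatase of triglyceride synthesis, held 7.73, 7.17, 9.4 and 22.9 CPM against 4.94, 6.73, 4.65 and 4.84 CPM (1.14, SE 0.27, adjusted p = 0.0365), a call lost without LKO 3, LKO 4 (0.388), flox 1, flox 3 or flox 4. Cnnm2, Os9 and Hps3 also rose at their 3' ends, by 1.43, 1.19 and 1.11, and of these the Os9 call alone was kept under every left-out library. That of Cnnm2 was lost without LKO 3, LKO 4 or flox 4, and that of Hps3 without LKO 2 or LKO 4.

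Among the falls, Car3, a carbonic anhydrase abundant in liver and fat, was the largest. Its 5 called intervals lay at both bounds of a gene without strand. At chr3:14872425-14872925 they fell furthest, to 4.08, 2.43, 1.7 and 2.4 CPM in LKO from 12, 15.6, 8.42 and 21.8 CPM in flox (−2.43, SE 0.27, adjusted p = 1.41e-05). Those at the other bound changed least, by −0.8 and −0.6. Their calls were lost under 4 and 6 of 8 left-out libraries (highest adjusted p 0.0862 and 0.138). The call at chr3:14871316-14871816 was lost under 4 of 8 (0.145), and the remaining Car3 calls were kept under every left-out library. Every LKO library lay under every flox library at all 5 intervals, of which the one of largest fall was chosen for it.

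Several falls were at P450 and other genes of xenobiotic metabolism. The 3' end of Cyp2a22 held 1.82, 1.99, 1.83 and 0.758 CPM against 5.06, 7.51, 3.77 and 6.8 CPM (−1.84, SE 0.32, adjusted p = 0.00294). Cyp2a5, the mouse coumarin hydroxylase, held 4.72, 3.31, 2.35 and 1.01 CPM against 9.89, 10.1, 4.77 and 7.26 CPM (−1.47, SE 0.3, adjusted p = 0.0107). Gsta3, a glutathione transferase, Cyp2b13 and Cyp3a41a had log2 fold changes of −1.4, −1.34 and −1.36. The Cyp2a22 call was kept under every left-out library, and those of Cyp2a5, Gsta3, Cyp2b13 and Cyp3a41a were all lost without LKO 3, LKO 4 or flox 2, with highest adjusted p of 0.0649, 0.131, 0.154 and 0.152. The Gsta3 call was also lost in DESeq2 (adjusted p = 0.333). Gsta3 and Cyp3a41a were also lost without flox 4, and Cyp3a41a without LKO 1 or flox 1. In the list of CAR and PXR targets, nuclear receptors for xenobiotics, 2 of 29 genes with a gene-end interval were called (Gsta3, Cyp2b13). Over all genes 71 of 13054 were. The median fold change of the list's 55 intervals was −0.33, against −0.0001 over all gene ends. The female-biased liver genes Cyp2a4, Cyp2b13, Cyp3a41a and Sult2a2 fell. Genes of the Cyp2a, Cyp2b, Cyp3a, Ces1, Mup, Serpina and Sult2a families have close copies, and reads shared between copies cannot be assigned with certainty.

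Secreted and lipid-handling genes fell as well. Angptl8, a fed-state inhibitor of lipoprotein lipase, held 10.6, 9.15, 4.05 and 5.18 CPM against 34.6, 21.9, 14.4 and 19.2 CPM at its 3' end, chr9:21837528-21838028 (−1.62, SE 0.23, adjusted p = 0.000354). Thrsp, a lipogenic protein induced by thyroid hormone and carbohydrate, held 1.93, 2.65, 1.57 and 1.52 CPM against 7.64, 5.36, 4.9 and 3.23 CPM (−1.45, SE 0.32, adjusted p = 0.0186), and lost its call without LKO 3, LKO 4, flox 1 (0.103) or flox 2. That groups were apart at Angptl8 and Thrsp follows from the choice of genes. Clec2d, a C-type lectin, held 6.12, 7.72, 2.48 and 4.29 CPM against 9.78, 25.5, 13.3 and 14.2 CPM (−1.59, SE 0.26, adjusted p = 0.00132). Ces1d and Sult2a2, a carboxylesterase and a sulfotransferase without strand here, had log2 fold changes of −1.74 and −1.22, and both lost the call without flox 2 (highest adjusted p 0.0623 and 0.0715), Ces1d also without flox 4.

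In the list of secreted plasma proteins, 6 of 30 genes were called: Apoa4 rose, and Alb, Apoa2, Serpina1c, Trf and Ttr fell. Calls were at 13 of 126 intervals in all, where 0.471% of all gene ends and 2.24% of all 3' ends were called. The list is rich in 3' ends: 21 of its 22 genes with strand had one, against 15.5% of all genes with strand. Both Apoa4 calls were lost without LKO 4 (adjusted p = 0.0544 and 0.0902), and that of Serpina1c without LKO 3, LKO 4, flox 1, flox 2 or flox 4 (highest adjusted p 0.227). At the 3' end of Alb, the albumin gene, whose promoter drives the Cre transgene, 3 intervals fell. In DESeq2 2 of these calls were lost (adjusted p = 0.246 and 0.0751), the first of them also without LKO 2, LKO 3 or flox 4. The interval farthest downstream kept its call and held 52.1, 35.3, 29.5 and 48.4 CPM against 78.6, 87.5, 54.4 and 87.5 CPM (−0.9, SE 0.14, adjusted p = 0.000724). Ttr, the carrier of thyroid hormone and retinol-binding protein, is without strand here and held 11.8, 9.71, 5.09 and 6.57 CPM against 26, 21.3, 16.7 and 27.7 CPM (−1.45, SE 0.2, adjusted p = 0.000138). Trf, transferrin, held 13.9, 17.8, 7.44 and 6.57 CPM against 33.6, 24.9, 19 and 24.7 CPM (−1.14, SE 0.21, adjusted p = 0.00457). The groups did not overlap at these Alb and Trf intervals, nor at that of Ttr, which was chosen for it. The Trf call was lost in DESeq2 (adjusted p = 0.131).

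**Figure D4:**
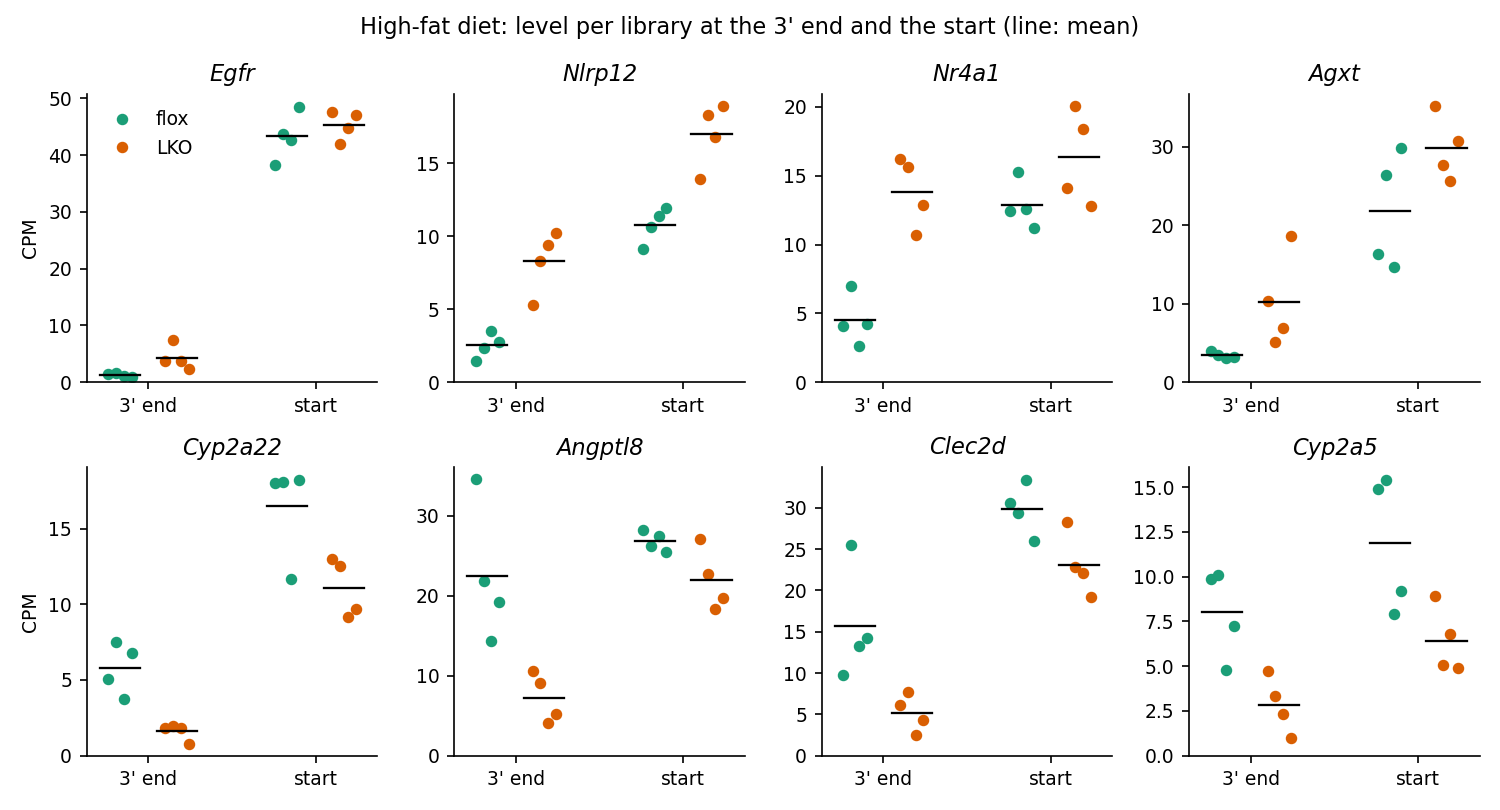
Accessibility (CPM) per high-fat library at the called 3' end and at the start interval of 8 genes, the 4 of largest rise and the 4 of largest fall among genes with both, with the group mean as a line. The 3' end intervals were chosen for groups that do not overlap, so their gap is fixed by the choice, and the start values are shown beside them as a description (Egfr starts lie at 38.2 to 48.5 CPM).

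Called starts included smaller changes than called 3' ends did. Starts held a median of 13.2 CPM against 6.27 CPM at 3' ends, so a smaller change can be called there. The size of called changes therefore does not compare the 2 classes. Of the 19 called starts, 13 rose and 6 fell, and their fold changes ranged from −1 to 1.17. The start shared by Ubxn6, a cofactor of the p97 ATPase, and Hdgfl2, a chromatin reader, held 42, 42.2, 40.1 and 41.5 CPM in LKO and 27.8, 28.9, 30 and 30 CPM in flox (0.51, SE 0.1, adjusted p = 0.00945). Its groups were narrow and apart. Gadd45g, a stress-induced growth arrest gene whose window is printed above, held 17.6, 17.6, 19.2 and 16 CPM against 10.6, 10.2, 9.67 and 11.3 CPM (0.75, SE 0.15, adjusted p = 0.00914; 0.0512 without LKO 3). Dusp8, a phosphatase of MAP kinases, held 13.1, 14.3, 14.1 and 15.7 CPM against 6.29, 6.44, 9.55 and 8.07 CPM (0.92, SE 0.18, adjusted p = 0.00669). Calls at Ubxn6 and Dusp8 were kept under every left-out library.

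At Mt2 the groups overlapped, with 28.1, 43.5, 35.5 and 36.1 CPM in LKO and 28.9, 24.7, 24 and 16.5 CPM in flox (0.61, SE 0.14, adjusted p = 0.0323). The call was lost without LKO 2, LKO 3, LKO 4, flox 2 or flox 4 (highest adjusted p 0.173). Plin4, a lipid droplet coat protein, held 20.6, 23.1, 30.7 and 41.7 CPM against 19, 19.8, 17.2 and 13.3 CPM (0.74, SE 0.17, adjusted p = 0.026), a call lost without LKO 3, LKO 4 (0.239) or flox 4. It was the 1 gene called among 17 of the lipid droplet list, beside 71 of 13054 over all genes. The interval between the neighbouring starts of Tomm40l and Apoa2, the gene of an apolipoprotein of high-density lipoprotein, fell. It held 44.6, 33.4, 29 and 26.4 CPM against 55.2, 54.5, 55.5 and 64.2 CPM (−0.78, SE 0.12, adjusted p = 0.000785). This call was kept under every left-out library.

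Ass1, a urea cycle enzyme, fell by 0.72 on the log2 scale (10.1, 12.6, 9.79 and 8.33 CPM in LKO, 17.2, 21.3, 12.3 and 16.4 CPM in flox, SE 0.17, adjusted p = 0.04), and its call was kept only without LKO 2 and without flox 3 (highest adjusted p 0.226). Ciart, whose window holds 3 E-boxes, fell to 9.44, 11.1, 9.53 and 9.85 CPM from 16.2, 20.4, 12.3 and 15.2 CPM (−0.69, SE 0.17, adjusted p = 0.0441), a call kept only without flox 3 (highest adjusted p 0.252). The called interval covers only the last 111 bp of that window, and the first E-box lies outside it. Of 19 clock genes, Ciart and Dbp, a clock-controlled transcription factor, were called, both lower, beside 71 of 13054 over all genes. The Dbp interval was at the 3' end, with 34.2, 21.9, 13.1 and 7.32 CPM in LKO and 37.3, 56.9, 34.2 and 44.4 CPM in flox, which met at LKO 1 and flox 3 (−1.16, SE 0.23, adjusted p = 0.00907). That call was lost without LKO 3 or flox 2, and in DESeq2 (adjusted p = 0.331).

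In all, 71 of the 13054 genes with a high-fat gene-end interval had a called one. None of the 30 ribosomal protein genes, 22 proteasome genes, 26 splicing factors and nuclear matrix RNA-binding proteins or 18 cohesin and remodeller genes with a gene-end interval was called by edgeR on either diet. The median absolute fold change of the ribosomal list's 67 high-fat intervals was 0.104, against 0.12 over all gene ends. The start of Rpl5, printed above, held 21.7, 17, 21.2 and 17.3 CPM in LKO and 19.8, 19.3, 16 and 22.7 CPM in flox (−0.01, SE 0.14, adjusted p = 0.989). Ndufs7, a subunit of respiratory complex I, was the 1 called among 30 respiratory chain genes, lower at its 3' end (−1.01, SE 0.2, adjusted p = 0.00859), a call lost without LKO 4 or flox 4 (highest adjusted p 0.0555). Lists of hepatocyte transcription factors (23 genes), NRF2 targets (15) and fatty acid oxidation (26) also had 0 calls in edgeR on the high-fat diet. Counts of 0 or 1 in these lists are near the share over all genes and show nothing particular to them.

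For most genes with a called 3' end the start moved far less. These were 36 genes, 17 higher and 19 lower, and 33 of them had a start interval. The start was called for 2 of the 33, Nlrp12 and Cyp2a4. Its fold change had the sign of the 3' end in 30 of 33 and was smaller in all 33, with a median absolute value of 0.34 against 1.22. Because the 3' ends were chosen by this contrast, the comparison is a description with no test.

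Egfr is the plainest case. Its start, in the window printed above, held 47.7, 41.9, 44.8 and 47.1 CPM in LKO and 38.2, 43.8, 42.7 and 48.5 CPM in flox (0.07, SE 0.1, adjusted p = 0.889). The groups overlapped, at a level far above that of the 3' end. Angptl8 held 27.1, 22.7, 18.3 and 19.7 CPM at its start against 28.2, 26.2, 27.5 and 25.5 CPM (−0.29, SE 0.13, adjusted p = 0.43). Nr4a1 held 14.1, 20.1, 18.4 and 12.8 CPM against 12.4, 15.3, 12.6 and 11.2 CPM (0.34, SE 0.17, adjusted p = 0.48). Nlrp12 is the exception, with a start at 13.9, 18.3, 16.8 and 18.9 CPM in LKO and 9.1, 10.6, 11.4 and 11.9 CPM in flox (0.66, SE 0.16, adjusted p = 0.0374), a call kept only without LKO 1 and without flox 3 (highest adjusted p 0.161). At Alb the start had the opposite sign to the 3' end, 0.34 (SE 0.18, adjusted p = 0.534), where reads of the gene's own promoter and of the Albumin promoter of the Cre transgene, which LKO animals alone carry, cannot be told apart.

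**Figure D5:**
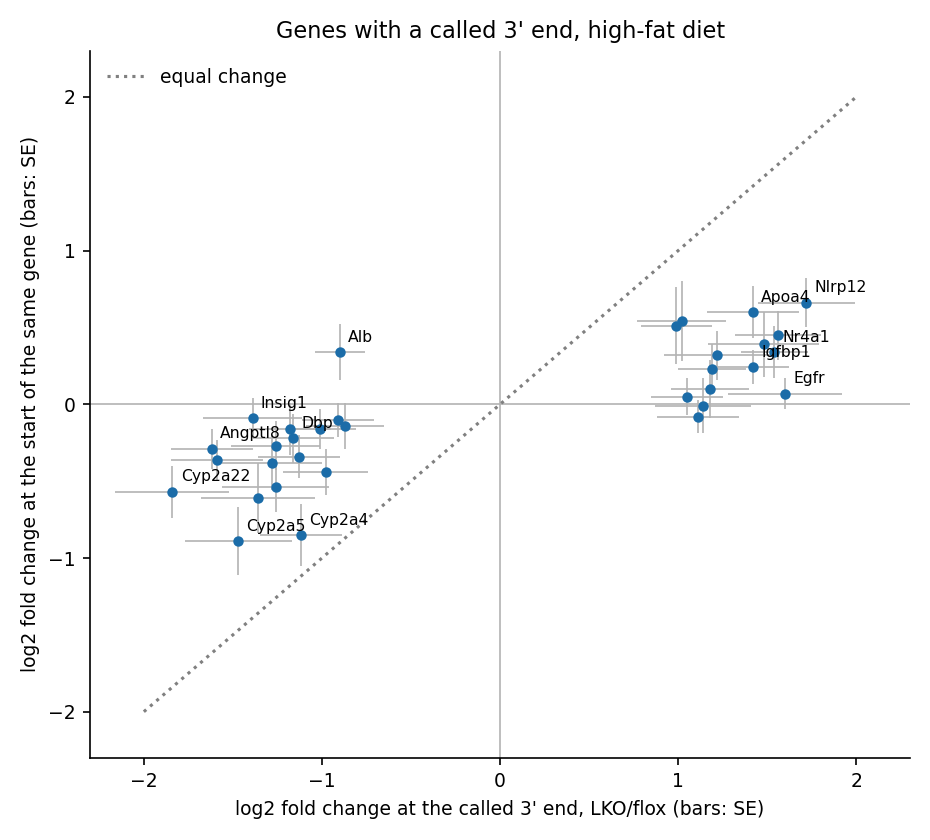
Log2 fold change at the start (vertical axis) against that at the called 3' end of lowest p (horizontal axis) for the 33 genes with both on the high-fat diet, with SE bars and a dotted line of equal change. All 33 points lie nearer to 0 on the vertical axis than on the horizontal one, and Alb is among the 3 with opposite signs.

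The same order held over all genes with an interval at both bounds, which were not chosen by the contrast. Both bounds were covered in 2122 high-fat genes, with a median of 17.7 CPM at the start and 6.6 CPM at the 3' end. The median absolute fold change was 0.102 at starts and 0.17 at 3' ends, and it was larger at the 3' end in 65% of genes. On chow, in 1639 genes, the values were 0.118 and 0.167, and 60.9% were larger at the 3' end. Level differed between the bounds in the same direction, so the counting error was larger at 3' ends.

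Where the rest of a gene's neighbourhood was called, starts moved less than 3' ends. In all, 188 genes were the nearest to a called other interval that rose on the high-fat diet. Of these, 156 had a gene-end interval and 16 had a called one, beside 71 of 13054 over all genes with a gene-end interval. Start intervals of the 188 genes had a median fold change of 0.07, and 140 of 213 were positive. Of the 213, 5 were called, where 0.129% of all starts were. At the 3' ends of these genes the median was 0.46, and 77 of 91 were positive. Of the 91, 23 were called, where 2.24% of all 3' ends were. The 118 genes near called other intervals that fell had medians of −0.15 at starts and −0.52 at 3' ends. Of these genes, 113 had a gene-end interval and 22 a called one. Calls were at 1 of their 149 start intervals and 20 of their 97 3' end intervals.

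On chow the high-fat calls had the same sign at fewer intervals than not. Of the 102, 63 had a matching chow interval, 27 with the same sign. None was called in edgeR on chow, where 2 of 19659 gene ends were called in all. At an unadjusted p of 0.05, 13 of the 63 passed on chow (20.6%, against 4.33% of all chow gene ends), 5 of them with the same sign as on the high-fat diet. The background differs by class, with 9.79% of chow 3' ends and 3.49% of chow starts passing, and 58 of the 102 were at 3' ends. Neighbouring intervals of 1 gene, as at Car3, are counted separately, so the 63 are not independent. The median absolute fold change of the 102 was 1.01 on the high-fat diet, and that of the 63 matches on chow was 0.288. On chow Igfbp1 held 7.59, 17.3 and 0.972 CPM in LKO and 24.9, 3.19 and 9.18 CPM in flox (−0.6, SE 0.79, adjusted p = 0.869). The 3' end of Angptl8 held 28.7, 48 and 146 CPM in LKO and 75.8, 113 and 16.6 CPM in flox on chow (0.13, SE 0.63, adjusted p = 0.968). In both genes the chow animals of 1 genotype spread over several fold, far more than on the high-fat diet.

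The difference between the diets was tested on intervals matched 1 to 1 with at least 50% overlap. Of 17201 matched gene-end intervals 11 were called (0.0639%), against 0.183% of all 73945 matched intervals. They were 7 gene ends without strand, 3 at 3' ends and 1 start, 5 with a higher and 6 with a lower LKO effect on the high-fat diet, where 0.134% of all matched intervals were higher and 0.0487% lower. The count was 20 without chow LKO 2, 18 without chow LKO 3 and 41 without chow flox 2. Diet, fasting state, interval set and depth changed together between the tables and cannot be told apart.

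Car3 gave 4 of the 11. At 2 of the 4 the chow groups overlapped, and the call of one of these, with a difference of −1.6, was lost under 9 of 14 left-out libraries (highest adjusted p 0.157). The chow match of the interval at chr3:14872425-14872925 held 36.2, 21.3 and 24.9 CPM in LKO and 20.9, 10.8 and 9.43 CPM in flox (log2 fold change 1, SE 0.29, adjusted p = 0.45), against the fall on the high-fat diet given above. The high-fat minus chow effect was −3.4 (SE 0.43, adjusted p = 0.001). On chow every LKO library was above every flox library, where groups were apart, in either direction, at 11.7% of all chow intervals. On the high-fat diet every LKO library was below, which the choice of this interval fixes. Ttr showed a fall on the high-fat diet (−1.2) and 0.27 on chow, a difference of −1.44 (SE 0.2, adjusted p = 0.00193).

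Gadd45g differed the other way at its 3' end. It held 17.3, 13.5, 14.5 and 15.8 CPM in high-fat LKO and 10.9, 11.5, 8.54 and 8.64 CPM in high-fat flox. On chow it held 3.86, 4.77 and 5.27 CPM in LKO and 24.6, 7.57 and 31.2 CPM in flox. The difference of effects was 2.85 (SE 0.4, adjusted p = 0.0021), from 0.62 on the high-fat diet (adjusted p = 0.0724) and −2.2 on chow (0.153). Asxl1, a Polycomb-associated protein, gave 1.67 (SE 0.3, adjusted p = 0.00967) at its 3' end. Akr1c14, a hydroxysteroid dehydrogenase, was the 1 start, at −1.8 (SE 0.35, adjusted p = 0.0203), and its call was lost under 5 of 14 left-out libraries (highest adjusted p 0.0819).

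Markers of liver cell types were summed over their gene-end intervals to see which cells the livers held. All 12 hepatocyte markers had a gene-end interval on both diets, and their summed level was 872 to 1420 CPM in high-fat flox and 797 to 1270 CPM in high-fat LKO (exact permutation p = 0.429). Kupffer cell markers had one for 9 of 15 genes, with 93.6 to 102 CPM in flox and 107 to 114 CPM in LKO (exact permutation p = 0.0286, the smallest 4 against 4 allow, 0.4 after adjustment over 14 comparisons). None of the 15 Kupffer intervals was called in edgeR, Adgre1, Timd4, Vsig4 and Marco had no gene-end interval, and the part of these cells in the high-fat calls was not tested. Markers of sinusoidal endothelium (12 of 14 genes, exact permutation p = 0.8), stellate cells (5 of 14, 0.429), cholangiocytes (7 of 12, 0.543), lymphocytes (4 of 15, 0.343) and neutrophils (2 of 12, 0.857) had overlapping groups on the high-fat diet. On chow the groups did not overlap for stellate cell markers (4 of 14 genes, 51.1 to 53.4 CPM in flox and 56.4 to 75.9 CPM in LKO) and lymphocyte markers (2 of 15, 14.4 to 15 and 16.6 to 20.7 CPM), both at the smallest exact permutation p of 0.1. Adjusted over the 14 comparisons that p was 0.467. In whole liver, fewer cells of a type and fewer open copies per cell cannot be told apart.

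The most open gene-end intervals were not called on either diet. Among high-fat intervals the 3' end of Ahsg, the gene of fetuin-A, held 165, 119, 82.9 and 182 CPM in LKO and 140, 116, 94.4 and 143 CPM in flox (0.16, SE 0.14, adjusted p = 0.785). An interval at the 3' end of Pck1, the phosphoenolpyruvate carboxykinase of gluconeogenesis, held 130, 90.2, 66.6 and 85.9 CPM against 130, 155, 84.6 and 123 CPM (−0.4, SE 0.14, adjusted p = 0.22, with 0.0108 without LKO 1 and 0.0235 without flox 3). Groups overlapped at both genes. A start of Ski, a co-repressor of TGF-beta signalling, held 122, 115, 94 and 115 CPM against 114, 106, 103 and 107 CPM (0.05, SE 0.08, adjusted p = 0.895).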

How the data were processed

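Chromatin accessibility was measured by ATAC-seq in frozen liver of 14 female mice. The submitters' processing notes name mm10, MACS2 (2.2.7.1), Bowtie2 (2.4.2), Trim Galore (0.6.7) and HOMER (4.11). The values are raw read counts per 501-bp interval, deposited by the authors in 1 table per diet, and interval names record the genotype whose peak call placed the interval. No label says whether reads were shifted for the transposase or duplicates removed, which would move and rescale counts near interval edges.

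Each table was fitted alone by the quasi-likelihood test of edgeR 4.0.16 (R 4.3.3) after TMM scaling (filterByExpr removed no interval), with Benjamini-Hochberg adjustment over all its intervals. CPM values and the SD between animals (log2 CPM, prior count 2, pooled within genotype) were computed from the counts with Python 3.11.15. The difference between diets was the interaction term on intervals matched with at least 50% overlap. Single values per library were tested by exact two-sided permutation. The fit and the SD were tested on simulated data with known changes. DESeq2 1.42.0, other scalings, filters, windows, a replicate block and leaving out each library were the alternatives.

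Gene bounds, strands and promoter sequences are from RefSeq GRCm38.p6. The members, gene lists and marker lists were chosen with earlier results of these data known. Genes were named by rule: per diet, up to 12 genes higher and 12 lower of largest change among called intervals whose groups do not overlap. With fewer than 10 calls, these were named with the 5 of lowest p in each direction. Called list members, up to 10 interaction calls and the 5 gene ends of highest level per table were also named. Other called starts and 3' ends were named after their values were seen. The count over the female-biased list is not reported here.

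Columns of the high-fat table match single samples, and those of the chow table match only a genotype and a number. Deviations from the group means of same-numbered chow columns correlated at 0.184, 0.533 and 0.189, which by the rule used (every pair over 0.1) counts as pairing from the data. Differently numbered columns reached as much (LKO 1 with flox 3 at 0.278, LKO 3 with flox 1 at 0.184), so the correlation is not particular to the number. The second pair is that of the libraries of fewest reads. High-fat pairs gave 0.0676, 0.131, 0.177 and −0.0105 and were not taken as paired. No 2 libraries agreed within sampling noise (lowest chi-square per degree of freedom 2.49). Animals are separate littermates per the labels' protocols, and p-values measure the spread between these libraries.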

Additional observations from a re-analysis of the deposited data

Results flagged for a closer look

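In 5 of 62 groups of 4 libraries, 1 library stood far from the others by Dixon's criterion, which chance meets in about 1 group in 20. The level at gene ends minus other intervals was 0.923 (log2) in high-fat LKO 1 and 0.81 to 0.822 in the other LKO libraries. The 3' end of Lpin1 held 22.9 CPM in LKO 4 against 7.17 to 9.4 CPM in the others, and 6.73 CPM in flox 2 against 4.65 to 4.94 CPM. Cnnm2 held 2.63 CPM in flox 2 against 1.57 to 1.73 CPM. Cyp2a22 held 0.758 CPM in LKO 4 against 1.82 to 1.99 CPM.

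The genotype effect differed between diets, by the interaction term in edgeR, at 11 gene-end intervals, of which 10 are named by the rule and the other is a further Car3 interval (−1.6). The high-fat minus chow differences in log2 fold change were −2.82, −3.4 and −1.52 at Car3, −1.44 at Ttr and −1.8 at the start of Akr1c14. They were 2.85 at Gadd45g, 3.62 and 3.89 at Serpina3k, 1.67 at Asxl1 and 1.8 at Tcte2, a gene named for the t-complex. The Serpina3k difference came mainly from chow, where its fold changes were −3.14 and −3.2 against 0.45 and 0.67 on the high-fat diet. Of the 10, all but those of Akr1c14 and Tcte2 were called under each of the 14 left-out libraries. Tcte2 was lost under 8 of 14 (highest adjusted p 0.0867).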

How the results depend on the processing

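No called value changed sign. The high-fat difference in share of reads, 0.11 percentage points, was −0.03 within 2000 bp and −0.13 without LKO 1. The chow count of 2 called gene ends was 57 with DESeq2, 0 with TMM factors from other intervals, 3 among intervals of at least 5 CPM, 1 within 500 bp of a bound and 6 within 2000 bp. It ranged from 0 to 59 over left-out libraries, and was 30 without both LKO 2 and flox 2, an alternative chosen after seeing the data. The high-fat count of 102 was 58 within 500 bp and 168 within 2000 bp, and ranged from 44 to 158 over left-out libraries. DESeq2 called 94, of which 52.1% rose (49 higher, 45 lower) against 43.1% of the 102, and 14 of the 102 were lost. Without flox 3, 32.9% rose, and without flox 1 the higher calls also outnumbered the lower (63 and 59). The diet difference of 11 was 27 with DESeq2, 7 within 500 bp, 21 within 2000 bp, and 8 to 41 over left-out libraries. With the replicate block 20 chow and 175 high-fat gene ends were called, and in the high-fat table, where same-numbered libraries share only a number, none of the 102 was lost. The share of reads kept its side of the threshold under the block (exact sign-flip permutation p = 0.25 for chow and 0.875 for high-fat libraries). The level difference on chow was 0.91 to 0.98 over left-out libraries, where the exact permutation p cannot go below 0.0625. The SD at gene ends minus other intervals went from −0.0623 to −0.0254 on chow at matched level. On the high-fat diet it went from −0.0749 to −0.0181 at matched level, −0.0871 within 500 bp and −0.0592 within 2000 bp. The high-fat size of change at gene ends minus other intervals went from −0.0587 to −0.0199 at matched level, −0.0494 within 2000 bp, and −0.0673 to −0.0566 over left-out libraries. For single named intervals, 1365 settings kept the side of the threshold, 312 lost the call and 29 gained one. The cause of these changes was not tested. High-fat libraries held 7.59 to 10.4 M reads, so intervals of few CPM, most 3' ends among them, are the least precisely measured.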
